A study of Homo sapiens with 3 samples.

Results

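Genes of mitochondrial fatty acid oxidation and of the PPAR receptors were followed in HCT-116 cells in which stearoyl-CoA desaturase-1 (SCD1) was inhibited or deleted. The set held 9 genes, found on the array by their symbols: CPT1A, CPT2, ACADM, ACADVL, HADHA, HADHB, ETFDH, PPARA and PPARD. They were 9 of the 19775 genes that the array read with a probe set annotated to 1 gene only, and all 9 were among the 12321 genes whose probe sets passed the filter on dim signals. The 9 genes were read by 27 probe sets, of which 21 passed that filter. The 6 probe sets that did not pass were 5 of PPARA and 1 of PPARD. In the SCD1-KO cells ETFDH fell and was the only gene of the set to pass 2-fold, and with the SCD1 inhibitor T-3764518 no gene of the set passed 2-fold in the deposited scaling.

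HCT-116 is an epithelial line from a human colorectal cancer, and SCD1 is the enzyme that makes monounsaturated fatty acids from saturated ones. The study asked how these cells withstand the loss of SCD1 activity, and its arrays compared inhibited and knock-out cells with SCD1-WT cells given DMSO. The first of 3 arrays held SCD1-WT cells given the vehicle DMSO for 24 h, and the second held SCD1-WT cells given T-3764518 for 24 h, at 100 nM by the study's methods. The third held SCD1-KO cells, which by the study's text were given DMSO, for 24 h by its methods, although the labels name neither. The knock-out was made with Cas9 and a pair of guide RNAs that remove part of the SCD gene, in clones picked by PCR after limiting dilution, and the sources used here do not say how many clones the array holds. Each condition had 1 array, so no difference has a replicate check, no p-value was computed, and a culture or a clone cannot be told apart from its condition. In a bulk RNA sample, fewer cells that express a gene and less RNA of it per cell cannot be told apart.

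Fatty acids enter mitochondria bound to carnitine, which the carnitine palmitoyltransferases attach on the outer membrane and remove on the inner one. Inside, acyl-CoA dehydrogenases and the trifunctional protein shorten the chain step by step, and electrons taken by the dehydrogenases reach the respiratory chain through the electron transfer flavoprotein and its oxidoreductase. PPARα and PPARδ are nuclear receptors that bind fatty acids and, paired with a retinoid X receptor, switch on genes of this pathway, a programme best known from liver, muscle and other tissues that burn fat.

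The genes of the trifunctional protein lie head to head on chromosome 2. The stretch between their starts is shown because both genes had lower signals on the inhibitor and SCD1-KO arrays than on the DMSO array. Neither gene passed 2-fold, and their differences under T-3764518 depend on how the arrays are scaled. Joint control of the genes by this stretch was not tested. RefSeq promoter windows run from 250 bases before to 50 bases after a gene's start. The windows of HADHA, on the minus strand, and HADHB, on the plus strand, shared 194 bases at chr2:26244689-26244882 of GRCh38.p14, within the 306 bases that separate the starts. The plus strand of the shared stretch is printed below, with capitals for its single match to GGGCGG, the core letters of the GC box, which lies there on the minus strand.
HADHA and HADHB shared promoter stretch: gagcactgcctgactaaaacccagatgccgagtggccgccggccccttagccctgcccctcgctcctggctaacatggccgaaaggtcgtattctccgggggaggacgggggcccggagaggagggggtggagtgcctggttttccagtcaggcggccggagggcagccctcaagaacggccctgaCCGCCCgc
G and C made up 68.6% of this stretch. Windows were listed for 8 of the 9 genes, 10 windows in all, since ACADVL and PPARA had 2 each. GGGCGG, searched on both strands, stood in 8 of these 10 windows and in 45.0% of all 35116 windows of this length. The windows without it were that of CPT1A and 1 of the 2 of ACADVL. The 10 windows are not separate, since those of HADHA and HADHB share 194 bases and the 2 of PPARA overlap. The single match of HADHA lies in the shared stretch and was counted for HADHB too. AGGTCA, the core hexamer bound by nuclear receptors, was in 0 of the 10 windows and in 13.8% of all windows, and 2 copies of it with 1 base between, the arrangement that PPARs bind, were in 0 of the 10 and in 0.0228% of all windows. TCAAGGTCA, a longer form that contains AGGTCA, was also in 0 of the 10, against 0.353% of all windows. CCAAT, the letters of the CCAAT box, stood in 2 of the 10 windows, 1 each of PPARD and PPARA, and in 34.6% of all windows. A motif that was not found is absent only as these letters in these windows.

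Signals are the deposited MAS5 values, on a linear scale and in arbitrary units, and they can be compared between arrays for 1 probe set but not between probe sets. Probe sets with a mean signal under 56.6, the median over all probe sets, were set aside as dim. A gene's value is the median log2 ratio over its remaining probe sets, and a gene was called changed at 2-fold or more. Both ratios to DMSO use the same DMSO array, whereas the ratio of SCD1-KO to T-3764518 does not use it. As a yardstick, the SD between the log2 ratios of different probe sets of 1 gene was taken by signal. Under T-3764518 it was 0.577 in the dimmest 20% of the remaining probe sets and 0.257 in the brightest 20%. In the SCD1-KO cells it was 0.601 and 0.249. This SD covers probe sets and not cultures. The median log2 ratio over all 12321 genes was -0.09 under T-3764518 and -0.01 in the SCD1-KO cells. Scaling the arrays to 1 median signal instead would raise it by 0.28 and 0.14, so the sign of a small ratio depends on the scaling.

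The arrays had the same trimmed mean, 500.1, and between 46.0% and 49.9% of their signals were under 56.6. The epithelial markers EPCAM, KRT8 and KRT18 were far above that level, as was the brighter of 2 probe sets of CDH1, while its other gave 70.1 in the knock-out. EPCAM and CDH1 were lower in the knock-out, with log2 ratios of -1.30 and -1.48, while KRT8 and KRT18 stood at 0.36 and 0.26. CDX2 and VIL1, markers of intestinal epithelium, were near that level on all 3 arrays, with signals of 59.6 to 115.1 and of 65.7 to 73.1. Of 11 markers of fibroblasts, leukocytes, endothelium, liver and muscle, 6 did not pass the filter, including COL3A1, PTPRC and ALB. The 5 that passed were COL1A1, DCN, CD3E, PECAM1 and DES, and none of these 5 passed 2-fold under T-3764518. In the knock-out COL1A1, CD3E and PECAM1 had log2 ratios of -0.24, -0.85 and -0.81. The kept probe set of DES passed the filter through the knock-out array, with signals of 48.6 with DMSO, 60.9 under T-3764518 and 132.4 there, or at least 2.34-fold higher, while its dim probe set went from 46.1 with DMSO to 17.4. The part of these markers in the results was not tested. SCD itself had higher signals on both arrays, with log2 ratios of 2.81 under T-3764518 and 1.16 in the knock-out, though its brightest probe set stood at 0.72 and 0.02. The deleted part was not placed on its probe sets, so these signals do not check the knock-out.

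Under T-3764518 none of the 9 genes reached 2-fold in either direction, where 5.49% of all genes did, 2.18% higher and 3.30% lower. The split of all genes, 269 higher and 407 lower, turned to 360 and 262 with quantile normalization, 551 and 163 with scaling to 1 median and 365 and 244 with a lowess correction, and under each of these 3 PPARD passed 2-fold. The log2 ratios of the 9 genes ran from -0.30 to 0.85 with a median of -0.10, beside -0.09 over all genes; 3 genes were above 0 and 6 below. In the SCD1-KO cells 1 of the 9, ETFDH, was at least 2-fold lower and none was higher, where 7.05% of all genes were past 2-fold, 3.12% higher and 3.93% lower. The log2 ratios there ran from -1.21 to 0.48 with a median of -0.27, beside -0.01 over all genes. In the ratio of SCD1-KO to T-3764518, ETFDH was again the only gene of the 9 past 2-fold, where 7.62% of all genes were, 4.52% higher and 3.10% lower. A count of 1 in 9 rests on that gene alone and was not read as differing from these backgrounds.

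**Figure D1:**
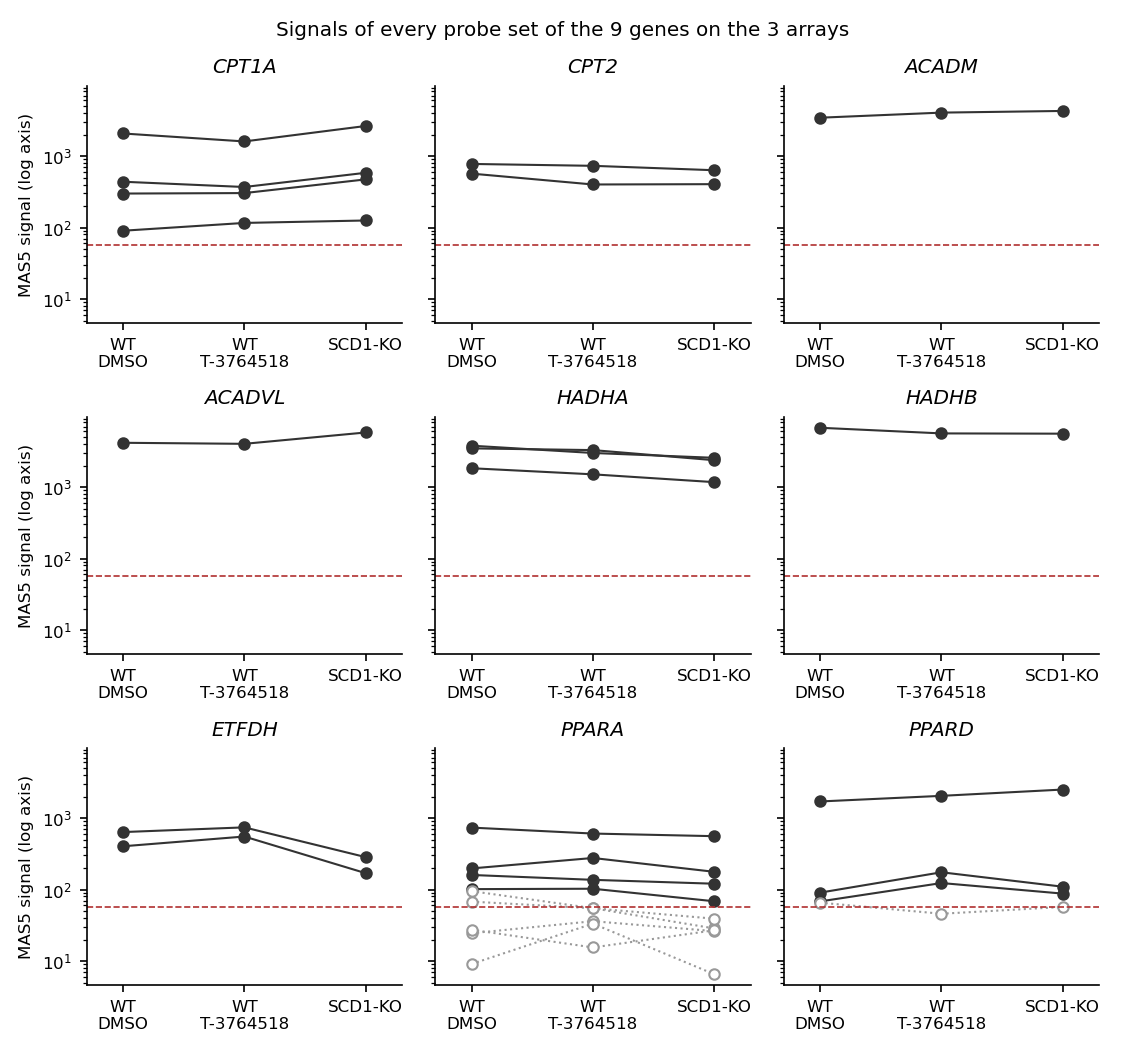
MAS5 signals (log axis) of each of the 27 probe sets of the 9 genes on the 3 arrays, with the level of 56.6 as a dashed line; filled points and full lines are the 21 probe sets that passed the filter and open points the 6 that did not. Both ETFDH probe sets drop on the SCD1-KO array alone, and the filled points of the other genes stay within 2-fold of DMSO.

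CPT1A makes acylcarnitines on the outer membrane, the step at which entry of fatty acids is controlled, and it was read by 4 probe sets. The brightest gave signals of 2069 with DMSO, 1601 under T-3764518 and 2634 in the SCD1-KO cells. The second gave 437.5, 369.2 and 583.5, and the third gave 299.0, 303.6 and 471.7 in the same order. The dimmest gave 90.3, 116.1 and 125.6. All 4 were highest in the SCD1-KO cells, by log2 ratios of 0.35 to 0.66 over DMSO, whereas under T-3764518 the 2 brightest were below DMSO and the other 2 above. The gene's log2 ratio was 0.45 in the SCD1-KO cells, 1.36-fold, and -0.11 under T-3764518, with an SD between probe sets at this signal of 0.344 and 0.340. SCD1-KO over T-3764518 was 0.65, or 1.57-fold, and all 4 probe sets were above 0 in it. For comparison, 39.8% of the 683 genes with 4 kept probe sets had all of them on the same side of 0 in the SCD1-KO ratio, and 41.6% in the ratio of SCD1-KO to T-3764518.

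CPT2, which returns the acyl group to coenzyme A on the inner membrane, was read by 2 probe sets. The brighter gave 775.9 with DMSO, 730.2 under T-3764518 and 633.7 in the SCD1-KO cells, and the other gave 568.1, 400.4 and 404.5. Both were highest with DMSO. Among the 3341 genes with 2 kept probe sets, 67.1% had both on the same side of 0 under T-3764518 and 67.2% in the SCD1-KO cells. The log2 ratios of CPT2 were -0.30 under T-3764518 and -0.39 in the SCD1-KO cells, under 2-fold, beside an SD between probe sets of 0.340 and 0.344. CPT1A and CPT2 thus lay on opposite sides of 0 in the SCD1-KO ratio, neither past 2-fold.

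The acyl-CoA dehydrogenases ACADM and ACADVL, which take the first step of the cycle on medium and very long chains, were read by 1 probe set each. ACADM gave a signal of 3439 with DMSO, 4051 under T-3764518 and 4275 in the SCD1-KO cells, log2 ratios of 0.24 and 0.31. ACADVL gave 4161, 4023 and 5798, log2 ratios of -0.05 and 0.48. The SCD1-KO array was the highest for both, and for ACADVL the DMSO and T-3764518 arrays were nearly equal. The SD between probe sets at this signal was 0.257 under T-3764518 and 0.249 in the SCD1-KO cells, and with 1 probe set neither gene has a second reading. ACADVL over its T-3764518 signal was 0.53 on the log2 scale in the SCD1-KO cells, with 2033 of the 12321 genes higher.

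HADHA is the α subunit of the trifunctional protein, which carries the hydratase and the long-chain dehydrogenase, and it was read by 3 probe sets. The brightest gave 3789 with DMSO, 2997 under T-3764518 and 2565 in the SCD1-KO cells. The second gave 3475, 3288 and 2376, and the third gave 1833, 1507 and 1172. All 3 were highest with DMSO and lowest in the SCD1-KO cells. Their log2 ratios in the SCD1-KO cells lay close together, from -0.65 to -0.55, and the gene's value of -0.56, or 1.48-fold lower, was below that of 10818 of the 12321 genes. Under T-3764518 the gene's value was -0.28. All 3 kept probe sets lay on the same side of 0 in 52.2% of the 1658 genes with that many in the SCD1-KO ratio.

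HADHB, the β subunit with the thiolase, had 1 probe set, with signals of 6747 with DMSO, 5627 under T-3764518 and 5579 in the SCD1-KO cells. Its log2 ratios were -0.26 and -0.27, about the SD of 0.249 to 0.257 between probe sets at this signal. Both subunit genes were therefore lower than DMSO on both arrays and neither passed 2-fold. With scaling to 1 median the T-3764518 ratios were close to 0, at 0.017 for HADHB and -0.0039 for HADHA. SCD1-KO and T-3764518 were nearly equal for HADHB, at -0.01 in their log2 ratio, while HADHA was at -0.36.

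**Figure D2:**
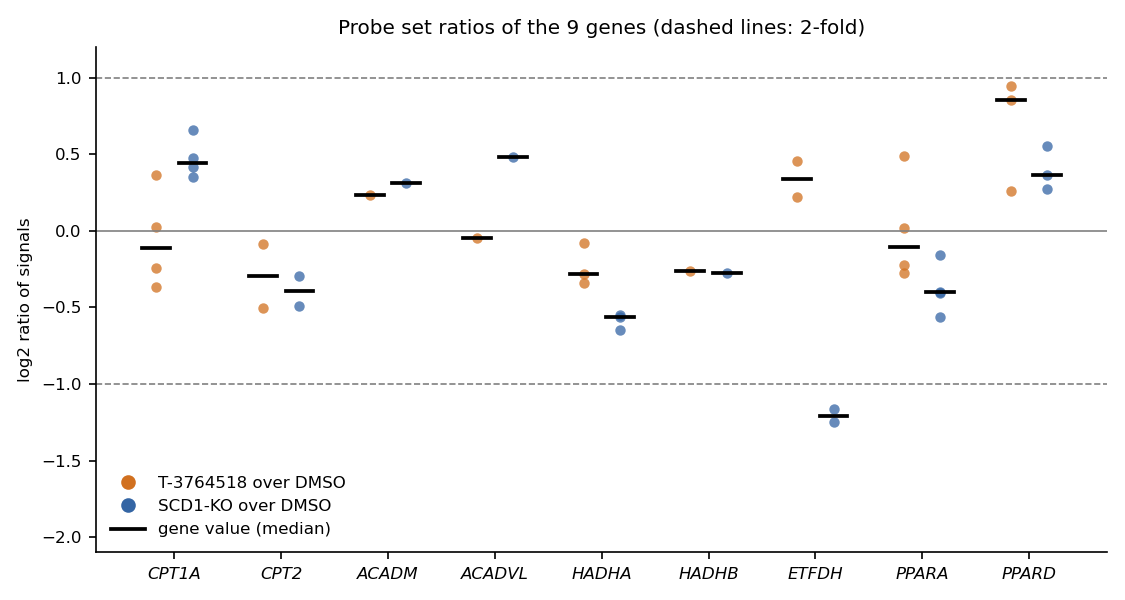
Log2 ratios to DMSO of the 21 kept probe sets of the 9 genes, under T-3764518 in orange and SCD1-KO in blue; points are probe sets, black bars are gene medians, dashed lines mark 2-fold, and all ratios share the DMSO array. ETFDH is the only gene beyond a dashed line, at -1.21 in the SCD1-KO cells, and the T-3764518 points of PPARD spread from 0.26 to 0.95.

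ETFDH is the oxidoreductase of the inner membrane that passes electrons from the electron transfer flavoprotein to ubiquinone, and it was the gene of the set farthest from DMSO in the SCD1-KO cells. Its brighter probe set gave 636.8 with DMSO, 741.1 under T-3764518 and 284.3 in the SCD1-KO cells, and the other gave 403.1, 551.7 and 169.5. Both were lowest in the SCD1-KO cells and highest under T-3764518, and all signals were above the filter level. Among the 3341 genes with 2 kept probe sets, 67.2% had both on the same side of 0 in the SCD1-KO ratio. The log2 ratios in the SCD1-KO cells were -1.16 and -1.25, so the gene fell 2.31-fold to a value of -1.21, beside an SD between probe sets of 0.344. Of all genes, 308 were lower. Among the 3054 genes in the same range of signals, 2.65% were at least 2-fold lower. SCD1-KO over T-3764518 was -1.54, or 2.91-fold lower, and only 115 genes were lower in that ratio. Under T-3764518 the gene's log2 ratio to DMSO was 0.34, within the SD of 0.340.

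Of all genes tested, those nearest to ETFDH in their pair of ratios to DMSO were UFSP2, at 0.44 under T-3764518 and -1.22 in the SCD1-KO cells, RNASE1, at 0.31 and -1.32, and PLAC1, at 0.22 and -1.16. In all, 70 genes lay within the SD between probe sets from it. UFSP2 also lies beyond ETFDH on chromosome 4. Each of the 3 was read by 1 kept probe set, and those of RNASE1 and PLAC1 were among the dimmest 20% of kept probe sets.

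After these values had been seen, the genes beside ETFDH on chromosome 4 were examined in their RefSeq order. TMEM144 and C4orf46, the 2 tested genes before it, had log2 ratios of -1.62 and -1.07 in the SCD1-KO cells, and PPID, a peptidylprolyl isomerase and the first after it, had -1.01. FNIP2 and RAPGEF2 followed at -0.75 and -0.91, and NAF1, the next, at 0.10. Several genes next to ETFDH were thus lower on the same array. Between ETFDH and the end of the chromosome lay 54 tested genes, with a median log2 ratio of -0.75 in the SCD1-KO cells, and 41 of them were below 0. At least 2-fold lower were 15 of the 54, or 27.8%, against 17 of the 395 tested genes before ETFDH, or 4.30%, whose median was 0.11. The genes before ETFDH were not level: the first 85 of the chromosome had a median of 0.47 in the SCD1-KO cells, with 77 of them above 0, and the other 310 a median of -0.0050, with 16 at least 2-fold lower, or 5.16%. The limit at 85 genes was set after the values were seen. Under T-3764518 the 54 genes had a median of -0.13, and 1 of them was at least 2-fold lower. The ratio of SCD1-KO to T-3764518, which leaves out the DMSO array, had a median of -0.65 over the 54 genes, with 20 at least 2-fold lower. ETFDH stood 0.85 below the median of its 20 nearest tested genes in the SCD1-KO ratio, at -0.35 for these 20. They were 10 on each side, and most of those before TMEM144 were not low, such as PDGFC at 0.67, though MND1 was at -0.91. Their median thus mixes genes within and outside the low stretch, and ETFDH lay less far below the -0.75 of the 54 genes. Of 11841 genes with 20 such neighbours, 1.56% had a lower neighbours' median than ETFDH. How far the low signals of this stretch and that of ETFDH belong together was not tested.

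**Figure D3:**
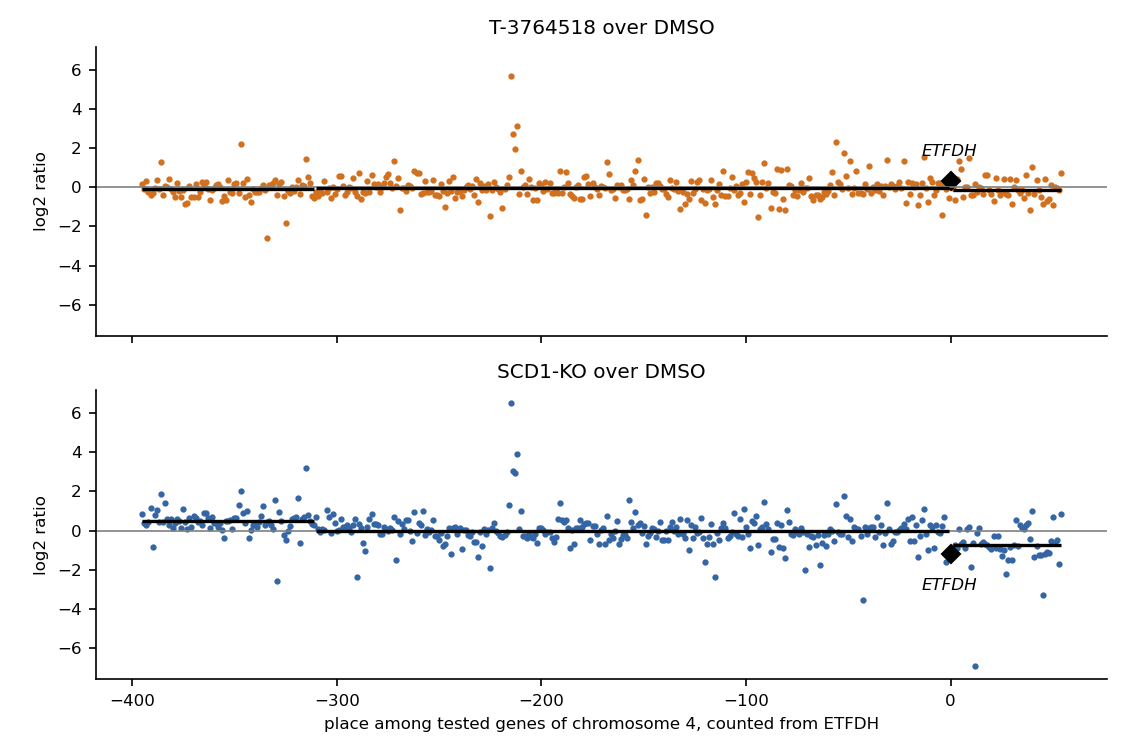
Log2 ratios to DMSO (vertical axes) of all tested genes of chromosome 4 by their place from ETFDH (horizontal axis, 0 at ETFDH, black diamond); black lines are the medians of the first 85 genes, of the 310 between them and ETFDH, and of the 54 after it. In the SCD1-KO cells the lines lie at 0.47, -0.0050 and -0.75, and under T-3764518 at -0.08, -0.04 and -0.13.

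Around the other 8 genes the 20 nearest tested genes had medians from -0.14 to 0.20 in the SCD1-KO ratio. The neighbours of CPT1A on chromosome 11 had a median of 0.20, beside 0.45 for CPT1A itself. Of 11841 genes with 20 such neighbours, 95.1% had a lower neighbours' median than CPT1A. For ACADVL on chromosome 17 the neighbours' median was -0.14, against 0.48 for the gene, and for HADHA it was -0.02, against -0.56.

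PPARA, the receptor that drives fatty acid oxidation in liver, was read by 9 probe sets, 5 of them dim. The brightest gave 735.2 with DMSO, 607.2 under T-3764518 and 558.1 in the SCD1-KO cells, and the second gave 197.5, 276.5 and 177.1. The third gave 160.0, 136.8 and 120.7, and the fourth 101.4, 102.7 and 68.6. All 4 were lowest in the SCD1-KO cells, while under T-3764518 they were on both sides of DMSO. Among the 683 genes with 4 kept probe sets, 39.8% had all on the same side of 0 in the SCD1-KO ratio. The gene's log2 ratio was -0.40 in the SCD1-KO cells and -0.10 under T-3764518, with an SD between probe sets of 0.422 and 0.421. The 5 dim probe sets had signals down to 6.54, and 3 of them were under the filter level on all 3 arrays.

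PPARD, the more widely expressed receptor PPARδ, was the gene of the set farthest from DMSO under T-3764518, and its probe sets did not give the same size. The brightest gave 1706 with DMSO, 2045 under T-3764518 and 2505 in the SCD1-KO cells, a log2 ratio of 0.26 with the inhibitor. The second gave 90.6, 174.5 and 109.6, and the third 68.3, 123.4 and 87.8, log2 ratios of 0.95 and 0.85. A dim probe set went the other way, from 65.6 with DMSO to 45.9 under T-3764518 and 57.1 in the SCD1-KO cells. The highest array was thus SCD1-KO for the brightest probe set and T-3764518 for the next 2. The gene's value under T-3764518 was 0.85, or 1.81-fold, with 385 of the 12321 genes higher, and it was 0.26 when the brightest probe set alone was read. Quantile normalization, scaling to 1 median and a lowess correction each put it past 2-fold, at up to 1.13. The 3 kept probe sets lay between 0.28 and 0.55 in the SCD1-KO cells, with a gene value of 0.36 beside an SD of 0.422.

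The genes nearest to PPARD in their pair of ratios to DMSO were the AP-1 factor JUND, at 0.87 under T-3764518 and 0.38 in the SCD1-KO cells, SLC25A33, at 0.85 and 0.34, and the sphingomyelin synthase SGMS2, at 0.82 and 0.38. This place is crowded, since 562 genes lay within the SD between probe sets from it.

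The other genes of the pathway were described by 6 lists with 75 genes, of which 49 could be tested. Under T-3764518 1 of the 49 was at least 2-fold higher and 1 lower, and their median log2 ratio was -0.23, beside -0.09 over all genes. In the SCD1-KO cells 1 was higher and 2 were lower, with a median of -0.16, beside -0.01. As 2 and 3 of 49, these counts were near the background of 5.49% under T-3764518 and 7.05% in the SCD1-KO cells. For scale, 9 housekeeping genes ran from -0.45 to 0.18 under T-3764518 and from -0.81 to 0.43 in the SCD1-KO cells, with medians of -0.08 and 0.01.

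The list of the carnitine shuttle also held ACACB and MLYCD, enzymes of malonyl-CoA rather than of the shuttle itself. Of this list 6 genes were tested, 1 of which passed 2-fold, in the SCD1-KO cells. CPT1C, a brain form of carnitine palmitoyltransferase, gave 430.5 with DMSO, 258.1 under T-3764518 and 212.5 in the SCD1-KO cells, log2 ratios of -0.74 and -1.02. Its single probe set was highest with DMSO and passed 2-fold in the SCD1-KO cells by little, and the call was lost with scaling to 1 median, at -0.88, and with an offset added to all signals, at -0.96. ACACB was the gene of the list farthest from DMSO under T-3764518, at -0.98 or 1.97-fold lower, and was at -0.54 in the SCD1-KO cells. Its 4 kept probe sets ran from -1.16 to -0.10 under T-3764518. The list's medians were -0.33 under T-3764518 and -0.19 in the SCD1-KO cells.

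Of 10 tested genes of mitochondrial β-oxidation none passed 2-fold on either array, and 7 were below 0 on each. ECHS1, the enoyl-CoA hydratase of short chains, was farthest from DMSO under T-3764518, with signals of 4319 with DMSO, 2777 under T-3764518 and 3693 in the SCD1-KO cells and log2 ratios of -0.64 and -0.23. ECI2, an isomerase for unsaturated chains, was farthest in the SCD1-KO cells, with 3176, 2272 and 2002 and log2 ratios of -0.48 and -0.67. Both genes were highest with DMSO and were read by 1 probe set. The list's medians were -0.31 and -0.28, beside -0.09 and -0.01 over all genes.

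The electron transfer flavoprotein that feeds ETFDH has subunits ETFA and ETFB, whose log2 ratios in the SCD1-KO cells were -0.30 and -0.69. Neither they nor the 5 tested dehydrogenases of the list passed 2-fold on either array. ACADSB, which acts on branched short chains, was farthest from DMSO on both. Its brighter probe set gave 841.8 with DMSO, 369.6 under T-3764518 and 382.3 in the SCD1-KO cells, and its other gave 540.3, 420.6 and 333.6. Both were highest with DMSO, but the brighter one passed 2-fold on both arrays and the other on neither, and the gene's values were -0.77 and -0.92.

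Of 11 tested genes of peroxisomal oxidation, 10 were below 0 under T-3764518, with a median of -0.50, and 6 in the SCD1-KO cells, with a median of -0.16. The medians over all genes were -0.09 and -0.01. Scaling to 1 median would raise each T-3764518 ratio by 0.28, so the count below 0 depends on the scaling. DECR2, a peroxisomal dienoyl-CoA reductase, was the only gene of this list past 2-fold and fell under T-3764518. Its single probe set gave 380.0 with DMSO, 89.8 under T-3764518 and 425.1 in the SCD1-KO cells, log2 ratios of -2.08 and 0.16. The T-3764518 array stood apart from the other 2, and no second probe set reads the gene. ACOX2 and PECR, peroxisomal enzymes of bile acid and fatty acid metabolism, had log2 ratios of -0.81 and -0.86 under T-3764518, under 2-fold. ACOX2 was read by 1 probe set, and the 2 of PECR differed, at -1.15 and -0.56.

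Of the 10 tested partners and coregulators of the PPARs none passed 2-fold, and their log2 ratios lay between -0.31 and 0.30 under T-3764518 and between -0.40 and 0.33 in the SCD1-KO cells. RXRB, a retinoid X receptor, was farthest from 0 under T-3764518, at -0.31 over 3 probe sets that ran from -0.34 to 0.02. PPARGC1B, a coactivator of mitochondrial genes, was at -0.28 under T-3764518 and, farthest from 0 in the SCD1-KO cells, at -0.40 by its 1 kept probe set, with signals of 489.3 with DMSO, 403.6 under T-3764518 and 369.9 in the SCD1-KO cells. PPARG, the third receptor of the family, was at 0.06 and -0.16. PPARGC1A, the related coactivator, did not pass the filter.

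Of 17 known PPAR targets 5 could be tested, 9 were dim in all their probe sets and 3 had no probe set of their own. The dim targets included FABP1, CD36, CYP4A11 and FGF21. The 5 tested targets did not move together. ANGPTL4, an inhibitor of lipoprotein lipase, fell in the SCD1-KO cells. Its brighter probe set gave 1507 with DMSO, 913.5 under T-3764518 and 201.7 in the SCD1-KO cells, and its other gave 806.3, 502.5 and 111.6. Both were highest with DMSO and lowest in the SCD1-KO cells, and the gene's log2 ratios were -0.70 and -2.88.

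ACSL1, which activates long-chain fatty acids for oxidation or storage, was past 2-fold on both arrays by its median. Its brighter probe set gave 905.0 with DMSO, 1531 under T-3764518 and 1392 in the SCD1-KO cells, log2 ratios of 0.76 and 0.62, and its other gave 295.6, 729.9 and 794.9, log2 ratios of 1.30 and 1.43. Both were lowest with DMSO, and the brighter one alone did not pass 2-fold. With the offset the SCD1-KO value was just under 2-fold, at 0.995. The gene's values were 1.03 and 1.02, and it lies in the stretch of chromosome 4 beyond ETFDH, where its 20 nearest tested genes had a median of -0.76 in the SCD1-KO cells, with 7 of the 20 above 0. Several of the genes just before ACSL1 were among these 7, such as IRF2 at 0.28 and PRIMPOL at 0.41. PDK4, UCP2 and PLIN2 did not pass 2-fold over DMSO on either array. UCP2, a mitochondrial carrier of the uncoupling protein family, was at 0.98 in the SCD1-KO cells, with probe sets at 0.52 and 1.43. Scaling to 1 median would raise this value of UCP2 by 0.14, past 2-fold. In the ratio of SCD1-KO to T-3764518 UCP2 was past 2-fold, at 1.29.

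**Figure D4:**
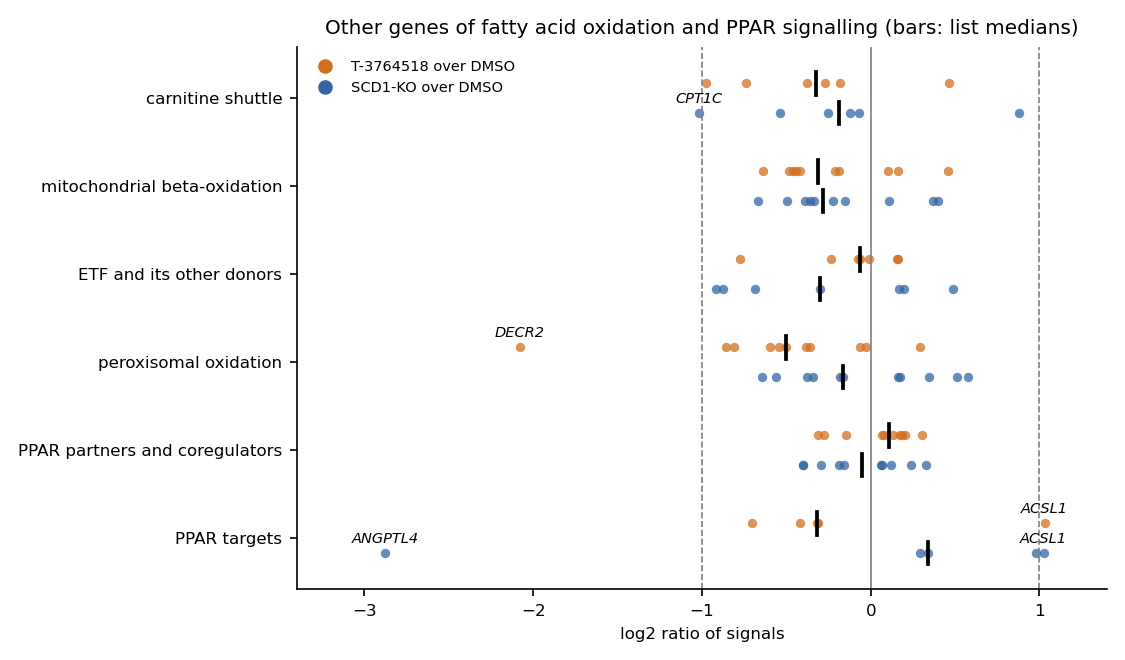
Log2 ratios to DMSO (horizontal axis) of the 49 tested genes of 6 lists, under T-3764518 in orange and SCD1-KO in blue; points are genes, black bars list medians, and dashed lines 2-fold. DECR2, ANGPTL4, ACSL1 and CPT1C are the genes on or beyond a dashed line. Peroxisomal oxidation has the lowest T-3764518 median of the lists, at -0.50, beside -0.09 over all genes.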

How the data were processed

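Total RNA of 3 HCT-116 samples was read on the Human Genome U133 Plus 2.0 Array by a service laboratory. The authors deposited 1 signal intensity for each of 54675 probe sets on a linear scale, made with MAS5 by the submitters' processing notes, of a version not given in the sources used here. MAS5 subtracts background and scales each array to a trimmed mean, so ratios are relative to the bulk of signals. The number of arrays, 1 per condition, limits the precision.

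Ratios were computed with pandas 2.3.3 and numpy 2.4.6 in Python 3.11.15, the lowess correction used statsmodels 0.14.6, and figures were drawn with matplotlib 3.10.9. The platform annotation gave 1 gene symbol for 41097 probe sets, several for 1801, and did not list 11777. By gene ID 41043 of the first kind were matched to RefSeq genes of GRCh38.p14, used for names and gene order. Probe sets were kept at or above percentile 50 of mean log2 signal. A single kept probe set read 6169 of the 12321 tested genes. The 9 genes, the lists and the rule for named genes were chosen with earlier results of these data known. Named were the 9 genes, SCD and the 3 genes with the nearest pair of ratios. The list genes past 2-fold were also named, or the farthest in each ratio where a list had none. ACACB, MLYCD, ETFA, ETFB, ACOX2, PECR, PPARG, UCP2, the neighbours and dim genes were named after their values were seen. Alternatives were quantile normalization, scaling to 1 median, a lowess correction, no filter or percentile 75, an offset of 16.5, signals raised to 56.6, the brightest probe set, the mean of probe sets, no probe sets marked _s_at or _x_at, thresholds of 1.5-fold and 3-fold, and a call by every probe set. SCD1-KO cells under T-3764518 were not analysed here.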

Additional observations from a re-analysis of the deposited data

How the results depend on the processing

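ETFDH kept its direction and stayed past 2-fold in the SCD1-KO cells under all 10 alternatives that give a gene value, between -1.23 and -1.07, and over T-3764518 between -1.68 and -1.38. Its count of 1 fell to 0 at 3-fold in both ratios, and at 1.5-fold CPT1A joined it over T-3764518, a count of 2. Under T-3764518 the count of 0 became 1, PPARD, under quantile normalization, scaling to 1 median, the lowess correction and at 1.5-fold; PPARD itself ran from 0.26 by its brightest probe set to 1.13. The median over the 9 genes moved from -0.10 to 0.18 with scaling to 1 median and to -0.26 with the filter at percentile 75 for T-3764518. With scaling to 1 median it was -0.13 in the SCD1-KO cells and -0.23 over T-3764518, where that scaling moved the median of all genes by 0.28, 0.14 and -0.14. Of 270 ratios of the 9 genes under alternatives, 8 moved by more than the SD between probe sets. A call was reversed in 0 of them, but only ETFDH had a call that could be reversed. CPT1A, ACADVL, HADHB and PPARA had values on both sides of 0 under T-3764518 across alternatives. So did ACADM, HADHB and PPARD in the ratio of SCD1-KO to T-3764518, where PPARD ran from -0.65 to 0.29. Without the signal filter 4550 genes passed 2-fold under T-3764518 and 4771 in the SCD1-KO cells, in place of 676 and 869. ACSL1 did not pass 2-fold by its brightest probe set, at 0.62 in the SCD1-KO cells, nor with the offset there, and CPT1C lost its call with scaling to 1 median and with the offset. No paired analysis was possible because each condition had 1 array. Signals under the filter level limit what can be read from the dim PPARA and PPARD probe sets and from most PPAR targets.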
